A study of Fukomys damarensis and Heterocephalus glaber and Mus musculus with 160 samples.

Results

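The fibrinogen gene cluster of the mouse comprises Fgg, Fga and Fgb, and it was examined here as the stretch chr3:83000000-83060000 of the GRCm38 build. Its members were all peaks of the mouse liver and heart histone lists that overlap this 60 kb window, whatever their height. There were 292 such peaks in 29 libraries, of 1711588 peaks in the mouse histone lists and 8953087 in all 116 lists of the series. Of the 292 peaks, 253 were in the 12 liver lists and 39 in the 17 heart lists.

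Fibrinogen is the soluble plasma protein that thrombin cuts to fibrin, the fibre mesh of a blood clot. Fga, Fgb and Fgg encode its Aα, Bβ and γ chains, which hepatocytes assemble and secrete, and all 3 genes are induced together in the acute-phase response by interleukin 6. H3K4me3 is a histone modification found at active promoters, H3K27ac is found at active promoters and enhancers, and H3K4me1 is typical of enhancers, active or primed. Peaks were not assigned to single genes here, because no mouse annotation was used, so regions are given by position. Whether the window also holds genes other than these 3 was not examined.

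The series covers liver and heart of 4 rodents, with histone marks read by chromatin immunoprecipitation and sequencing (ChIP-seq). In this method an antibody binds the marked histone, and the DNA recovered with that histone is sequenced and compared with input chromatin. The mouse libraries came from wild-type C57BL/6J adult males aged 2 months, and the labels name no treatment. Liver libraries came from 4 animals (85920, 85921, 85923 and 85924), each with all 3 marks. Heart libraries numbered 6 for H3K4me3, 6 for H3K27ac and 5 for H3K4me1, from other animals than the liver, and 1 heart library of each mark was a pool of 3 animals, counted as 1. Both are whole-tissue samples, so the share of cells that carry a mark and the amount of it per cell cannot be told apart, and the labelled tissues were not checked against marker genes.

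The deposited lists held between 17431 and 129914 peaks, and read depth is unknown. All 12 liver lists were called against the input of their own animal, but only 4 of the 17 heart lists were. A fold, in what follows, is the enrichment over background that the authors' peak caller gave to each peak, and it is described within a list and not tested. One heart library stood apart from the rest. The H3K4me3 library labelled heart 6837 had a peak at 1894 of 2632 liver H3K4me3 regions that no other heart H3K4me3 library covered, or 72.0%. The same measure was 33.1% of 1103 regions in the pool. In the other 4 heart H3K4me3 libraries it was between 0% and 1.07% of 738 to 746 regions. These are different sets of regions, because each leaves out what the other heart libraries of the mark covered. For the H3K27ac library of animal 6837, set against the other heart H3K27ac libraries, the measure was 0.514% of 584 regions. Results for H3K4me3 are therefore given with and without the library labelled heart 6837.

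In liver, peaks of H3K27ac and H3K4me1 lay along the window, and those of H3K4me3 lay mostly in a few blocks within it. In heart, peaks lay in a single stretch near its far end, except in the H3K4me3 library labelled heart 6837. The map of peaks by library shows this layout. The widest liver coverage was that of H3K27ac, which took up 67.0% of the window on average. H3K4me3 took up 27.4% and H3K4me1 took up 24.7%.

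**Figure D1:**
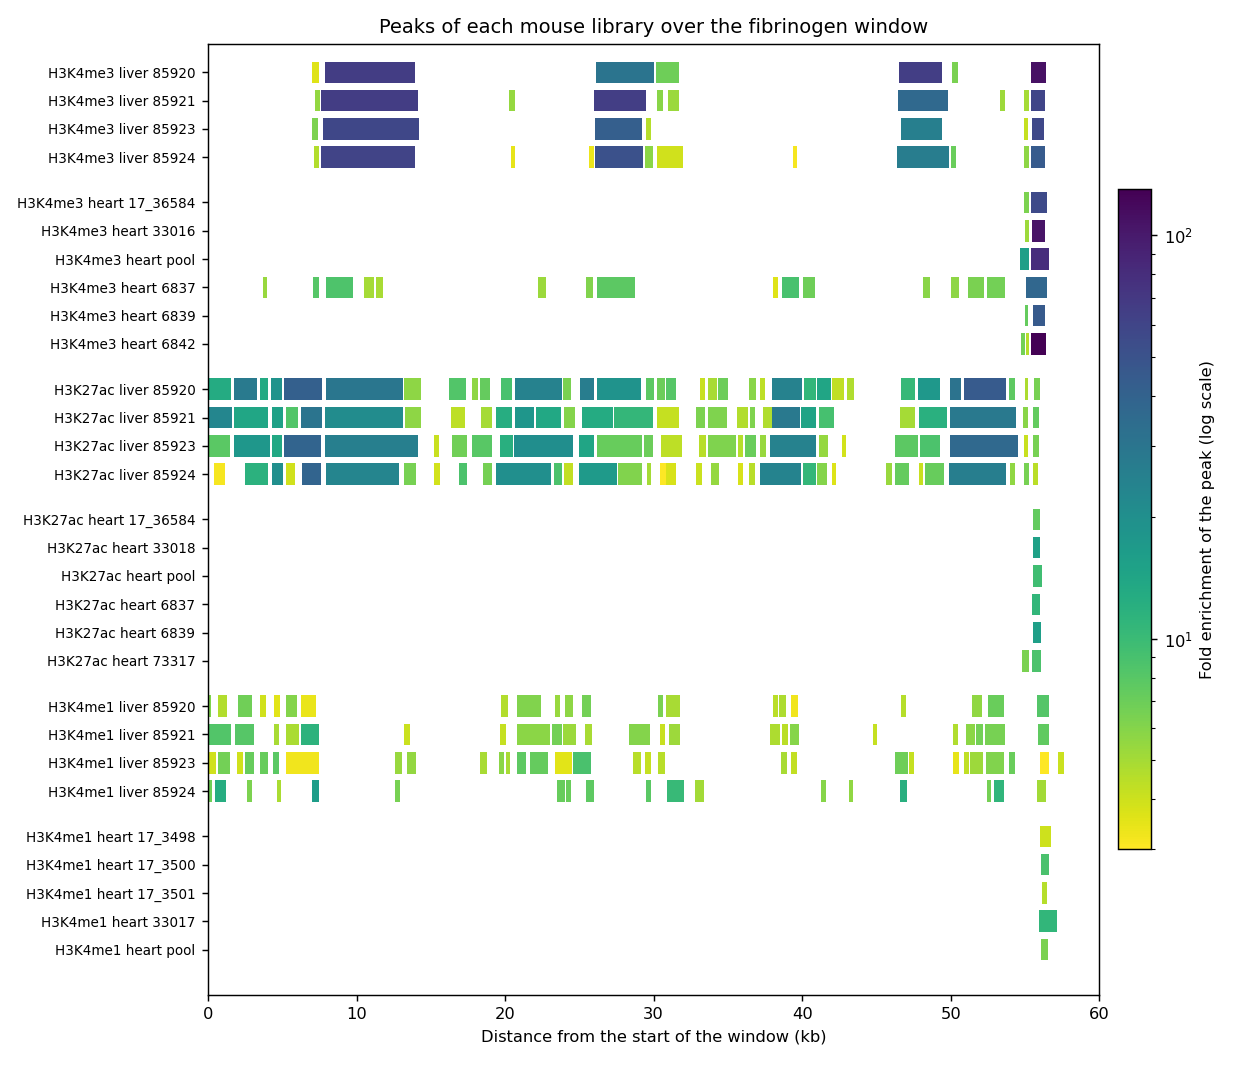
Each row is 1 library, and each block is 1 peak over the 60 kb window, placed by its distance in kb from the window's start and coloured by its fold enrichment (log scale). Liver rows of H3K27ac and H3K4me1 carry peaks along the window, and those of H3K4me3 carry them mostly in a few blocks. Heart rows carry peaks from about 55 kb, and the H3K4me3 row of heart 6837 is the exception among the 6 heart H3K4me3 libraries.

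For H3K27ac, peaks covered 39825, 41455, 43008 and 36562 bases of the window in the livers of 85920, 85921, 85923 and 85924. The heart libraries ranged from 499 bases through a median of 536 to 1111 bases. Every liver library lay above every heart library, as they did in 20.3% of the 22013 windows of the same size that held an H3K27ac peak in at least 1 mouse library. The means were 40.2 ± 2.76 kb in liver (SD, n = 4) and 0.634 ± 0.238 kb in heart (SD, n = 6), a difference of 39.6 kb. The two-sided exact permutation test over libraries gave p = 0.00952, the smallest these group sizes allow. With Benjamini-Hochberg adjustment over all windows, the adjusted p of this test was 0.0231. Coverage was thus called higher in liver, as it was in 21.8% of windows, and 44.7% of windows were called in one direction or the other. Leaving out any 1 of the 4 liver animals ended the call, with adjusted p-values of 0.0547 to 0.0557 by the same exact permutation test. The groups remained apart. The unadjusted p of that test was then 0.0238, the smallest that 3 against 6 libraries can give. No window of the genome was called in these runs, so the loss of the call was not particular to this window. The size of the liver coverage set the window apart from most others in the same lists. It ranked 10, 10, 9 and 23 of 22013 windows by bases covered in 85920, 85921, 85923 and 85924.

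For H3K4me3, peaks covered 16280, 16952, 14339 and 18285 bases in the livers of 85920, 85921, 85923 and 85924. The heart libraries covered 1411 bases in 17_36584, 1177 in 33016, 1768 in the pool, 14132 in 6837, 1073 in 6839 and 1472 in 6842. All 4 liver values were above all 6 heart values, as in 1.47% of 22605 windows, but the library labelled heart 6837 came within 207 bases of the lowest liver. The means were 16.5 ± 1.64 kb (SD, n = 4) and 3.51 ± 5.21 kb (SD, n = 6). The exact permutation test gave p = 0.00952, the smallest these group sizes allow, and an adjusted p of 0.149, so the difference of 13.0 kb was not called. None of the 22605 windows was called for H3K4me3 by this test, and 12.1% had an unadjusted p under 0.05, 4.02% with liver higher. The unadjusted p of this window was the same for H3K27ac, for which 52.9% of windows had an unadjusted p under 0.05. The call for H3K27ac and not for H3K4me3 therefore reflects the other windows of the genome, not a lower p at this one. Without the library labelled heart 6837, heart coverage was 1.38 ± 0.272 kb (SD, n = 5) and the exact permutation test gave an adjusted p of 0.137. In 85920, 85921 and 85923 this was the window with the second most H3K4me3 coverage of all 22605, and in 85924 it had the most. When windows were placed at every 10 kb step instead, those that overlap the cluster window were left out. Of the 272010 windows that remained, which overlap each other and include windows without a peak, between 6 and 18 covered more.

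For H3K4me1, peaks covered 13307, 18106, 19425 and 8430 bases in the livers of 85920, 85921, 85923 and 85924. In heart they covered 754 bases in 17_3498, 551 in 17_3500, 347 in 17_3501, 1232 in 33017 and 457 in the pool. The lowest liver was well above the highest heart, a separation found in 13.5% of 26829 windows. The means were 14.8 ± 5.00 kb in liver (SD, n = 4) and 0.668 ± 0.349 kb in heart (SD, n = 5). The exact permutation test gave p = 0.0159, again the smallest possible, and an adjusted p of 0.110, so the difference of 14.1 kb was not called. No window was called for this mark, and 21.0% had an unadjusted p under 0.05, 18.4% with liver higher. With every list cut to the length of the shortest, the difference was 2685 bases. The liver ranks were less extreme than for the other marks, at 722, 419, 340 and 2576 of 26829 windows. The heart list of the pool had only 20521 peaks, and that of 33017 carried a tag of unexplained meaning. The difference was 14.1 kb without the pool and 14.3 kb without 33017, and each of the 5 heart libraries had a single peak in the window.

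**Figure D2:**
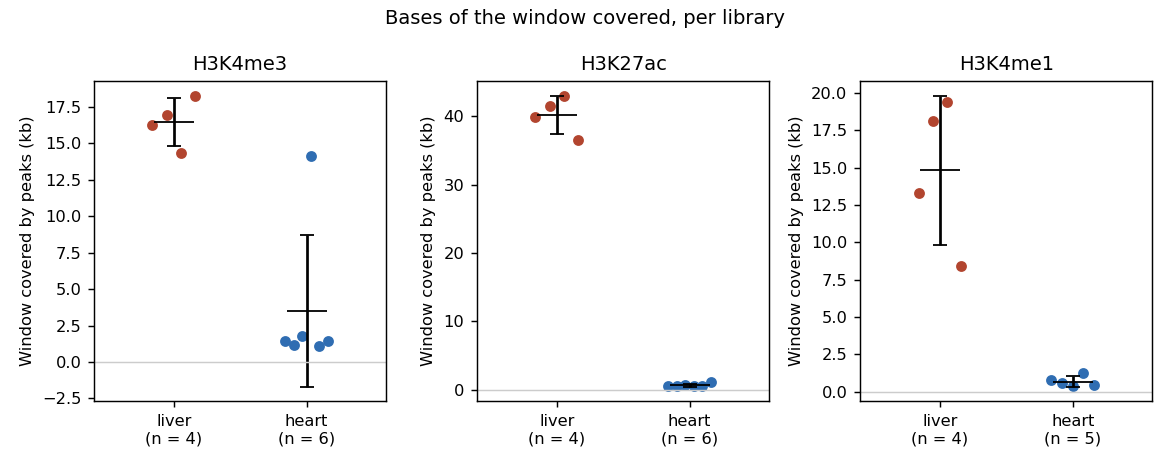
The 60 kb window's coverage by peaks in kb, per library (points), with the mean and SD of each tissue (bar and whiskers), for the 3 marks. Liver points lie above heart points for each mark, and the high heart point for H3K4me3 is the library labelled heart 6837 at 14132 bases.

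Liver coverage was low on both sides of the window. In the 60 kb before it, liver H3K27ac covered 1.47 ± 0.483 kb (SD, n = 4), beside 1.46 ± 1.34 kb in heart (SD, n = 6). In the 60 kb after it, liver H3K27ac covered 0.182 ± 0.363 kb, beside 0 in every heart library. Liver H3K4me1 covered 0.812 ± 0.226 kb before and 1.42 ± 0.138 kb after (SD, n = 4). No H3K4me3 peak of either tissue lay in the 60 kb before the window. Of the liver peaks, 3 of H3K27ac and 4 of H3K4me1 ran across the window's start, by at most 578 bases, and no peak ran across its end.

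Divided into 6 bins of 10 kb, the window was called higher in liver for H3K27ac in 6 of 6 bins (adjusted p = 0.0285 in each by the exact permutation test), against 18.3% of all 65908 bins called in that direction. The first 5 bins had no heart H3K27ac peak at all. Liver coverage was highest in the third bin, at 8.82 ± 0.287 kb (SD, n = 4), and in the first, at 8.54 ± 1.04 kb. It was lowest in the last 2 bins, at 4.99 ± 0.249 kb and 4.96 ± 0.313 kb. The unadjusted exact permutation p of each bin was 0.00952, the smallest these group sizes allow. Leaving out 1 liver animal ended the call in all 6 bins, and no bin of the genome was called in those runs.

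H3K4me3 was not called in any bin by the exact permutation test, and 4 of 6 bins had an unadjusted p under 0.05 all higher in liver, beside 5.37% of all 41764 bins in that direction. In the first, the second and the fifth bin every liver library was above every heart library, as in 2.20% of all bins. The last bin did not separate the tissues, with 1.43 ± 0.229 kb in liver (SD, n = 4) and 1.86 ± 1.20 kb in heart (SD, n = 6), and without the library labelled heart 6837 the heart mean was 1.38 ± 0.272 kb. H3K4me1 had 6 of 6 bins with every liver library above every heart library, as in 12.7% of 89185 bins, and none was called (adjusted p = 0.113 in each by the exact permutation test). All 6 had an unadjusted p under 0.05, as had 15.9% of bins with liver higher. Its first 5 bins had no heart peak. With lists of equal length, 0 of the 6 bins kept every liver library above every heart library.

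**Figure D3:**
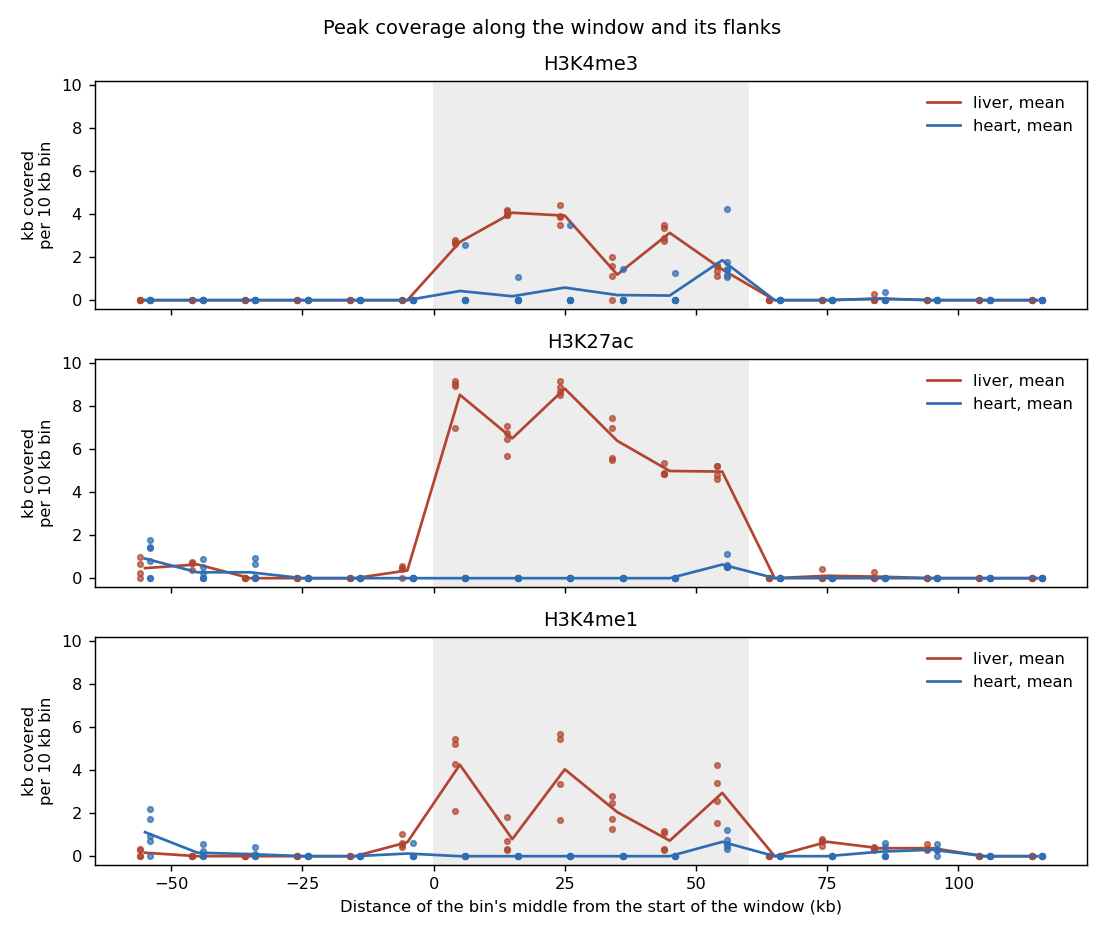
Coverage by peaks in kb per 10 kb bin, for the window (grey) and 60 kb on each side, against distance in kb from the window's start, with lines for tissue means and points for libraries. Liver H3K27ac is between 4.96 and 8.82 kb on average inside the window. The heart lines of H3K27ac and H3K4me1 rise inside it only in the last bin. The heart line of H3K4me3 is also raised in the earlier bins, where only heart 6837 has peaks.

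Merging the peaks of both tissues gave 16 H3K4me3 regions in the window, 23 for H3K27ac and 28 for H3K4me1. For H3K27ac, 20 of the 23 had a peak in all 4 livers, 21 were found in liver alone, and 2 in both tissues. Over the genome, 21.5% of 148018 merged H3K27ac regions were found in liver alone, and 20.5% had a peak in all 4 livers. For H3K4me1, 7 of the 28 had a peak in all 4 livers, 27 were found in liver alone, and 1 in both tissues. The genome had 30.8% of 198155 merged H3K4me1 regions in liver alone, and 18.7% with a peak in all 4 livers. For H3K4me3, 2 of the 16 were found in liver alone, 9 in both tissues and 5 in heart alone, beside 2.21% in liver alone and 65.8% in heart alone of 53592 regions over the genome. All 5 of the last, and 8 of the 9 in both, had their heart peak in the library labelled heart 6837 only. Without that library the window had 12 H3K4me3 regions, 10 of them in liver alone, 2 in both tissues and 0 in heart alone, beside 7.94% in liver alone and 58.0% in heart alone of 44827 regions. These regions were not tested.

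The H3K4me3 of the liver was gathered into a few wide blocks. Of 12 merged liver regions, 5 had a peak in all 4 livers, and 3 of these were wider than 2 kb, a limit set after the values were seen. The first wide region, chr3:83007616-83014214, held a single peak of 6102, 6529, 6505 and 6341 bases in 85920, 85921, 85923 and 85924. These widths differed little between animals, at 6369 ± 197 bases (SD, n = 4), and ranked 43, 32, 20 and 45 in their lists of 17431 to 19301 peaks. The folds were 66.4, 66.4, 58.0 and 61.2 in the same order. These folds were less unusual than the widths, since 28.4% to 32.7% of the peaks of those lists had at least the same fold. No heart library but 6837 had a peak there, where its highest fold was 8.65.

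The second wide region, chr3:83025962-83030003, had its widest peak at 3864, 3553, 3130 and 3277 bases, with folds of 30.4, 65.7, 42.3 and 51.0, in 85920, 85921, 85923 and 85924. The third, chr3:83046382-83049894, had peaks of 2888, 3355, 2769 and 3513 bases, with folds of 65.2, 36.6, 26.0 and 26.7 in the same order. In their lists the widths ranked 397 to 855 in the second region and 664 to 1175 in the third, less extreme than in the first. Of the peaks in those lists, 28.8% to 47.9% had at least the same fold for the second region, and 29.6% to 52.4% for the third. The animal with the widest peak differed between these regions, and the highest fold did not go with the widest peak in either. Of the 6 heart libraries, only the library labelled heart 6837 had a peak in them, of 2527 bases at fold 7.72 in the second and 443 bases at fold 5.90 in the third. The other 5 heart H3K4me3 libraries had none. Just before the first wide region, a narrow liver region at chr3:83007001-83007563 had folds of only 3.63 to 6.28.

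The fourth region of at least 1 kb, chr3:83055378-83056382, was the one place where both tissues had every mark in every library. Whether it belongs to a fibrinogen gene or to a neighbouring gene was not examined. The H3K4me3 peak there was 955, 1002, 858 and 927 bases wide in the livers of 85920, 85921, 85923 and 85924, with folds of 110, 60.3, 57.0 and 44.7. In heart it was 826 to 1382 bases wide, with folds from 37.6 through a median of 67.5 to 128. Both the widths and the folds of the tissues overlapped. For H3K27ac, the peak was 336 to 449 bases wide in liver, with folds of 4.40 to 7.46. The heart libraries had it at 499 to 646 bases, with folds of 7.45 to 15.8. The heart widths were the larger ones, the opposite of the order over the whole window; this was noticed after the values were seen and was not tested. The H3K4me1 peak overlapped between tissues, at 606 to 805 bases in liver and 347 to 1232 in heart.

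**Figure D4:**
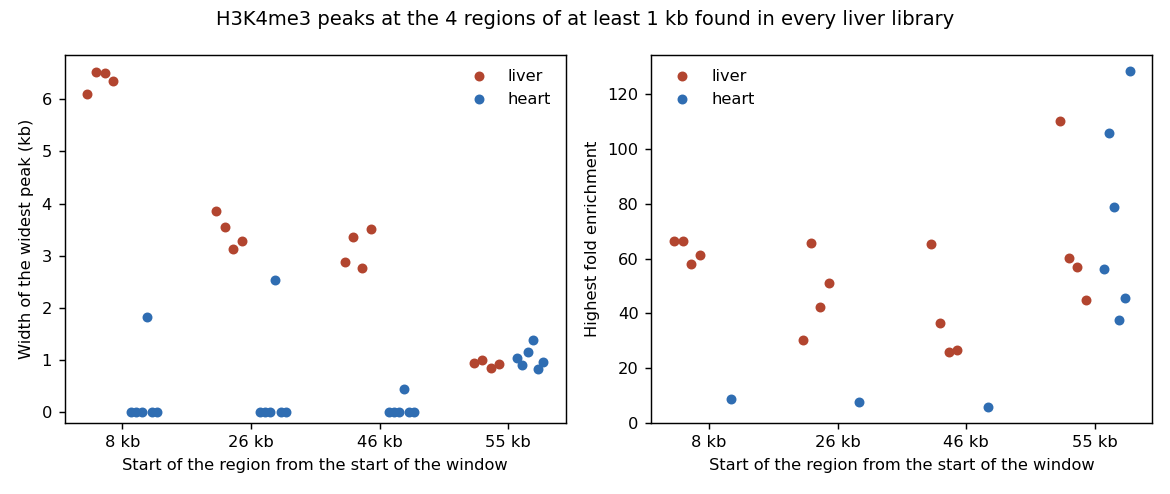
Width in kb of the widest H3K4me3 peak (left) and highest fold enrichment (right) of each library at the 4 regions of at least 1 kb found in every liver, named by their start in kb from the window's start, with a width of 0 where a library had no peak. Liver widths reach 6.53 kb in the first region, and only in the last region do all 6 heart libraries have a peak.

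The H3K27ac peaks with the highest folds in liver lay next to the wide H3K4me3 regions, and some reached a few bases into them. At chr3:83006308-83007591, just before the first wide region, all 4 livers had H3K27ac, with folds of 30.7 to 41.3. At chr3:83050915-83053725, just after the third, they had folds of 26.3 to 44.9. A further shared stretch, chr3:83038001-83039872, lay between the second and the third wide region and had folds of 24.2 to 28.2. The highest fold of the window was in one of the first pair of stretches in each of the 4 livers. The peak over the first stretch ran 21 bases into the first wide region in 85920, where its fold was 41.3, and 37 bases in 85921, where its fold of 30.7 was the highest of the window. It ended before that region in 85923 and 85924. Across the shared part of the first wide H3K4me3 region, H3K27ac folds were 21.0 to 29.6.

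By coverage, however, H3K27ac was fuller inside the wide H3K4me3 regions, and H3K4me1 was sparser. The 3 wide regions made up 14.2 kb, or 23.6% of the window. H3K27ac covered 85.7%, 92.5%, 90.1% and 82.1% of them in 85920, 85921, 85923 and 85924, and 60.4%, 61.9%, 66.0% and 54.4% of the rest of the window. The difference was 26.9 ± 2.92 percentage points (SD, n = 4) and had the same sign in 4 of 4 animals. H3K4me1 covered 2.52%, 12.8%, 21.5% and 8.32% of the wide regions, and 28.2%, 35.5%, 35.7% and 15.8% of the rest, in the same order of animals. That difference was -17.5 ± 8.30 percentage points (SD, n = 4), lower inside in 4 of 4. The exact sign-flip permutation test gave p = 0.125 for each of these 2 comparisons, two-sided and the same after Benjamini-Hochberg adjustment over the 2, and with 4 animals it can give no smaller value. With lists of equal length the H3K4me1 difference was -6.83 percentage points.

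**Figure D5:**
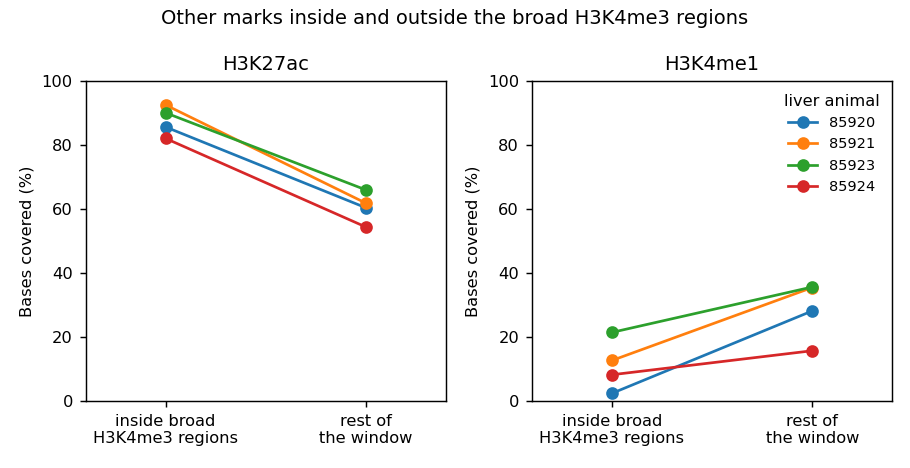
Percent of bases covered by H3K27ac (left) and H3K4me1 (right) in each of the 4 liver animals, inside the 3 wide H3K4me3 regions and in the rest of the window, with a line per animal. Every H3K27ac line falls and every H3K4me1 line rises from inside to outside.

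Wide H3K4me3 peaks elsewhere in the genome gave a comparison within each list, as a description. The livers had between 2925 and 3802 H3K4me3 peaks of at least 2 kb. The median such peak was covered by H3K4me1 over 36.1%, 38.0%, 37.6% and 46.9% of its length in 85920, 85921, 85923 and 85924. All 3 wide peaks of the window were below that median in all 4 animals, with a middle value of 0%, 6.03%, 17.6% and 5.38%. For H3K27ac the window's wide peaks were close to the rest, with a middle value of 89.9% to 95.7% beside genome medians of 89.0% to 95.6%.

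Taking the 3 marks of an animal together, 27.9 ± 3.20% of the window had no mark in liver (SD, n = 4). H3K27ac alone took up 25.3 ± 3.56%, H3K4me3 with H3K27ac 19.7 ± 1.94%, and H3K27ac with H3K4me1 17.7 ± 7.98%. The last of these varied most, from 6.55% in 85924 to 24.3% in 85923. Most H3K4me3 bases also had H3K27ac, at 87.8 ± 4.93% (SD, n = 4). In heart, the pool was the only sample with all 3 marks, and 97.1% of the window had none in it.

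The marks differed in how far the 4 livers shared the same bases. H3K4me3 covered 13.0 kb of the window in all 4 livers, which was 66.4% of what it covered in any. H3K27ac covered 30.4 kb in all 4, or 62.8%. H3K4me1 covered only 3.59 kb in all 4, or 13.8% of the 26.0 kb it covered in any. The list of 85924, with the fewest H3K4me1 bases in the window, was the longest of the 4 liver lists for that mark, at 113889 peaks.

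The library labelled heart 6837 had 16 H3K4me3 peaks in the window, of which 15 lay outside the region shared by both tissues. Their folds were 3.63 to 8.94, and that of the shared peak was 37.6. All 16 overlapped bases covered by H3K27ac in at least 2 livers, and 8 of the 16 overlapped bases covered by H3K4me3 in at least 2 livers. Every window peak of the other heart H3K4me3 libraries overlapped both kinds of bases. An overlap with H3K27ac is easily met here, as this mark covered 80.7% of the window in at least 1 liver, beside 32.7% for H3K4me3. In all 4 livers the shares were 50.7% and 21.7%. The share in at least 2 livers, which the counts use, lies between these limits for each mark. The H3K27ac partner of the library labelled heart 6837 had 1 peak in the window, in the shared region, at fold 10.8. The list of this H3K4me3 library was not the longest, at 29226 peaks beside 32785 in 6842 and 30067 in the pool, which had 3 and 2 peaks in the window.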

How the data were processed

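The authors deposited 1 peak list per library, called against 1 input library, with GRCm38 as the build, per the file names. MACS2 is named in the submitters' processing notes, with no version. The deposited fold enrichment of each peak is a linear ratio over background, its −log10 p-value and −log10 q-value were deposited as the peak caller wrote them, and the authors' score follows from the q-value. The aligner is not given in the sources used here.

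Overlapping peaks of a library were merged and clipped to the window, and the bases covered were counted in Python 3.11.15 (pandas 2.3.3, NumPy 2.4.6, SciPy 1.17.1). Liver and heart were compared by the two-sided exact permutation test of the difference in means, adjusted by Benjamini-Hochberg over all windows of 60 kb, or bins of 10 kb, on 21 chromosomes that held a peak of that mark. A call needed an adjusted p under 0.05. The functions were tested on simulated data. Regions are merged peaks of a mark, named by position counted from 1. Those given in full were picked after their values were seen. Alternatives were a −log10 q of at least 4, lists of equal length, other measures, other bins and leaving out each library. The planned gene lists, marker genes and promoter sequences need a mouse annotation and were not analysed here. The window and the lists were chosen with earlier results of these data known. The labels name separate animals for the replicates, and precision is limited by their number.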

Additional observations from a re-analysis of the deposited data

Results flagged for a closer look

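A library was singled out when its distance to its neighbour was over a set share of its group's range (Dixon's 95% limit, which chance exceeds in about 1 of 20 groups). Among 35 groups of values, 6 values were singled out. The library labelled heart 6837 lay above the other 5 heart H3K4me3 libraries in bases covered (14.1 kb, the next 1.77 kb), in the number of peaks in the window (16, the next 3) and in its widest peak (2527 bases, the next 1164). The H3K27ac heart library of 73317 lay above the other 5 with 1.11 kb covered, the next having 0.612 kb, and with 2 peaks, each of the others having 1. Its list was the longest of the 6, at 109724 peaks. With the others tied at 1 peak, any library with a second peak would have been singled out, so the rate of 1 in 20 does not hold for that count. The H3K4me3 liver library of 85920 had a highest fold in the window of 110, the next being 66.4.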

How the results depend on the processing

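The direction of every window difference in the report, liver above heart, held under each alternative run. For H3K27ac, leaving out 1 library gave differences of 38647 to 40796 bases. The call ended without each of the 4 liver animals, at 39708, 39165, 38647 and 40796 bases. The exact permutation p was then 0.0238, the smallest that 3 against 6 libraries can give, and adjusted over all windows it became 0.0547 to 0.0557. No window of the genome was called in these runs. The call for the window held without each heart library. The bins called for H3K27ac went from 6 to 0 without a liver animal and stayed at 6 without a heart library. H3K4me3 and H3K4me1 had 0 calls under every alternative. For H3K4me3 leaving out 1 library gave 12352 to 15084 bases, and for H3K4me1 12613 to 16278. Counting peaks rather than bases made H3K4me3 overlap between tissues (4.5 more peaks in liver, exact permutation p = 0.210). Without the library labelled heart 6837 the counts did not overlap, at 7 to 12 peaks in liver and 2 to 3 in heart. By the widest peak, H3K4me1 overlapped between tissues (1143 bases wider in liver, exact permutation p = 0.0317). With lists of equal length the H3K4me1 difference was 2685 bases, and H3K4me1 inside minus outside the wide H3K4me3 regions was -6.83 rather than -17.5 percentage points, an alternative chosen after seeing the data. The H3K4me1 comparison over libraries labelled do alone had 2 heart libraries, so its smallest exact p was 0.133. The comparison of genes by annotation was not run. No paired analysis was possible because the liver and the heart libraries came from different mice. Read depth limits the width and number of peaks, and no list gives it.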
